A study of Mus musculus with 6 samples.

Results

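The clock output transcription factors described here are the 8 genes Dbp, Tef, Hlf, Nfil3, Ciart, Bhlhe40, Bhlhe41 and Rora. Each symbol was matched to its NCBI gene number. All 8 were listed, among 17441 genes listed in any library, and all 8 passed the filter on low values that left 13120 genes for testing. RNA was sequenced from heart tissue below the ligature at day 3 in male mice aged 12 weeks by their labels, on a C57BL/6 background by the study's methods. Wild-type mice had either a sham operation (WT sham) or ligation of the left coronary artery, which causes a myocardial infarction (WT MI), and mice that lack the adapter gene Card9 by their label also had that artery ligated (Card9 KO MI), with 2 libraries for each of these 3 groups. No Card9 KO sham group was used, so a difference of Card9 KO MI from WT sham mixes genotype with infarction.

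The circadian clock is a feedback loop of transcription that runs in nearly every cell, heart muscle cells included. ARNTL with CLOCK or NPAS2 activates genes through E-box sequences, among them the Per and Cry genes, whose products repress that activation, and Dbp, which carries the rhythm to other genes. The output factors then act on shared elements: DBP, TEF and HLF activate through D-boxes, NFIL3 represses through the same D-boxes, CIART, BHLHE40 and BHLHE41 restrain ARNTL and CLOCK, and RORA activates Arntl through ROR elements. In the heart these factors relay time of day to genes of metabolism and of electrical conduction. Transcripts of this loop change with the hour, and the hour at which hearts were taken is not given in the sources used here, so a difference in hour and a difference between groups cannot be told apart.

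Card9, the targeted gene, checks the labels. Its FPKM (fragments scaled by gene length and by library depth) was 0.99 and 1.03 for WT sham, 3.39 and 5.08 for WT MI, and 9.85 and 6.94 for the Card9 KO MI-labelled libraries. The infarct libraries were all above the sham libraries, and those labelled Card9 KO MI were the highest, which goes against that label. The log2 fold change against WT MI was 0.85 (standard error 0.23, adjusted p = 0.11 in limma). Lcn2 runs the other way: the study reports less Lcn2 mRNA in Card9 KO hearts after infarction, in a separate measurement. Here Lcn2 had an FPKM of 268.76 and 203.93 for WT MI but 6.98 and 7.27 for the Card9 KO MI-labelled libraries, the direction of that label. Whether the Card9 fragments stem from deleted or kept exons cannot be read from a single value per gene, and the label was not settled. Those libraries are therefore written of as Card9 KO MI-labelled, and every direction drawn from them rests on that label.

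Differences were tested with limma on log2(FPKM + 1) in one fit of the 3 groups, and a gene was called when its p, adjusted over all genes tested by the Benjamini-Hochberg method, was below 0.05. Adding 1 before the logarithm shrinks fold changes at low FPKM. The fit was repeated under 15 alternatives, and the alternatives counted below for single genes are these; a further one kept the fit and asked for a fold change of at least 2 besides the adjusted p. Nothing in the labels says how the 2 libraries of a group relate to animals, so p-values measure the spread between these libraries only. Depth was estimated from the steps between low FPKM values, at 3016207 to 4312423 fragments per library, so that 3 fragments over 2 kb of transcript equal an FPKM of 0.348 to 0.497. At that depth, and on its longest coding transcript, Ciart rested on an estimated 11.2 to 29.2 fragments per library and Dbp on 45.1 to 239, while Bhlhe40 rested on 202 to 675. These estimates cover counting error only.

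The members lie on separate chromosomes, apart from Bhlhe40 and Bhlhe41, which are both on chromosome 6. By the GENCODE annotation of mm9, the build named for the deposited values, Dbp (NCBI gene 13170) spans bases 52960458 to 52965525 of chromosome 7 on the plus strand, Tef (21685) bases 81632851 to 81657291 of chromosome 15 on the plus strand, and Ciart (229599) bases 95682426 to 95686174 of chromosome 3 on the minus strand. Of the exon bases annotated to Dbp, 16.7% are shared with Sphk2 on the opposite strand, and since the sources used here do not give whether strand was used in counting, fragments of both genes cannot be told apart over those bases. Sphk2, a kinase gene, had FPKM values of 12.53 and 11.75 for WT sham, 14.99 and 17.9 for WT MI, and 14.37 and 11.92 for the Card9 KO MI-labelled libraries. This profile was far flatter than that of Dbp, but both WT MI libraries were the highest in it too, and the part of Sphk2 in the values of Dbp was not tested. Hlf, Nfil3, Ciart and Bhlhe41 share no exon base with another annotated gene, and Tef, Bhlhe40 and Rora share between 0.63% and 3.61%.

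Promoters from RefSeq (GRCm38.p6, 250 bases before to 50 bases after the start site) were searched on both strands for the elements named above. The letters were CACGTG for the E-box, CACGTT for an E-box variant, TTATGTAA or TTACGTAA for the D-box, and TAGGTCA or TGGGTCA for the ROR element, and the matches found did not overlap. A promoter was matched for 7 of the 8 members, with 8 start sites, since Tef had 2, and Bhlhe40 had no entry. The E-box letters were in the promoters of 3 members, Tef, Ciart and Bhlhe41, against 7.15% of the 32851 promoters of that length, and the ROR element was in that of Nfil3, against 6.45%. No member promoter held the E-box variant or the D-box letters, which were in 4.68% and 1.06% of all promoters, and the windows of Dbp, Hlf and Rora held none of the 4 motifs. Ciart held 3 E-boxes, from −116 to −39 relative to its start site, and both Tef start sites held 1, at −127 and at −138. A match describes letters only, and their absence from a window of this length says nothing about a factor. The promoters with a match are printed 5′ to 3′ on the gene's strand with the motif in capitals, Tef at its start site with the match at −138, to show where the letters lie: the E-box in Ciart, Tef and Bhlhe41, and the ROR element in Nfil3.
Ciart, chr3:95882179-95882478, minus strand, GRCm38.p6: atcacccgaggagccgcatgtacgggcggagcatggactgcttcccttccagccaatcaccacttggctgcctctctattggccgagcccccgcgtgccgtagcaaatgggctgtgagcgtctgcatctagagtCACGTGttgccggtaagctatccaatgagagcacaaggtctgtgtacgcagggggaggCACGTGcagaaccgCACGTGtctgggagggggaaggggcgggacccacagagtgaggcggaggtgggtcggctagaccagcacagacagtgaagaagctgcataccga
Tef, chr15:81811164-81811463, plus strand, GRCm38.p6: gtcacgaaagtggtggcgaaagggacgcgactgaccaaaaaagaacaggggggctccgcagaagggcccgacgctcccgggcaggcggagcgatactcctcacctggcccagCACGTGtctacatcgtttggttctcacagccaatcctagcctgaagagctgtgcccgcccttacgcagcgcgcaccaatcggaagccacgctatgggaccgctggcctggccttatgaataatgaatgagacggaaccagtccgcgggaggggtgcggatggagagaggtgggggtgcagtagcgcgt
Bhlhe41, chr6:145865371-145865670, minus strand, GRCm38.p6: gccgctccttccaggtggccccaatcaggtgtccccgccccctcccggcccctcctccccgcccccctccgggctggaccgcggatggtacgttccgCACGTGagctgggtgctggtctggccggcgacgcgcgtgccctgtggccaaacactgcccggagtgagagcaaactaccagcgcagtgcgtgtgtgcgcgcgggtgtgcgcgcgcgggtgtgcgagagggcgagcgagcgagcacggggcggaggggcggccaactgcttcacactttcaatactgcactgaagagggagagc
Nfil3, chr13:52980990-52981289, minus strand, GRCm38.p6: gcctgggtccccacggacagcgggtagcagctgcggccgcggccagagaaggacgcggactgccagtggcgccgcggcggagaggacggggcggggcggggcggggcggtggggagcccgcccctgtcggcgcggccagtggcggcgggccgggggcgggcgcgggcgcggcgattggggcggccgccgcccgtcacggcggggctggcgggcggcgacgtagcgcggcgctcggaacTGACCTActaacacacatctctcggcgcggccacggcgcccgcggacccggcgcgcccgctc

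**Figure D1:**
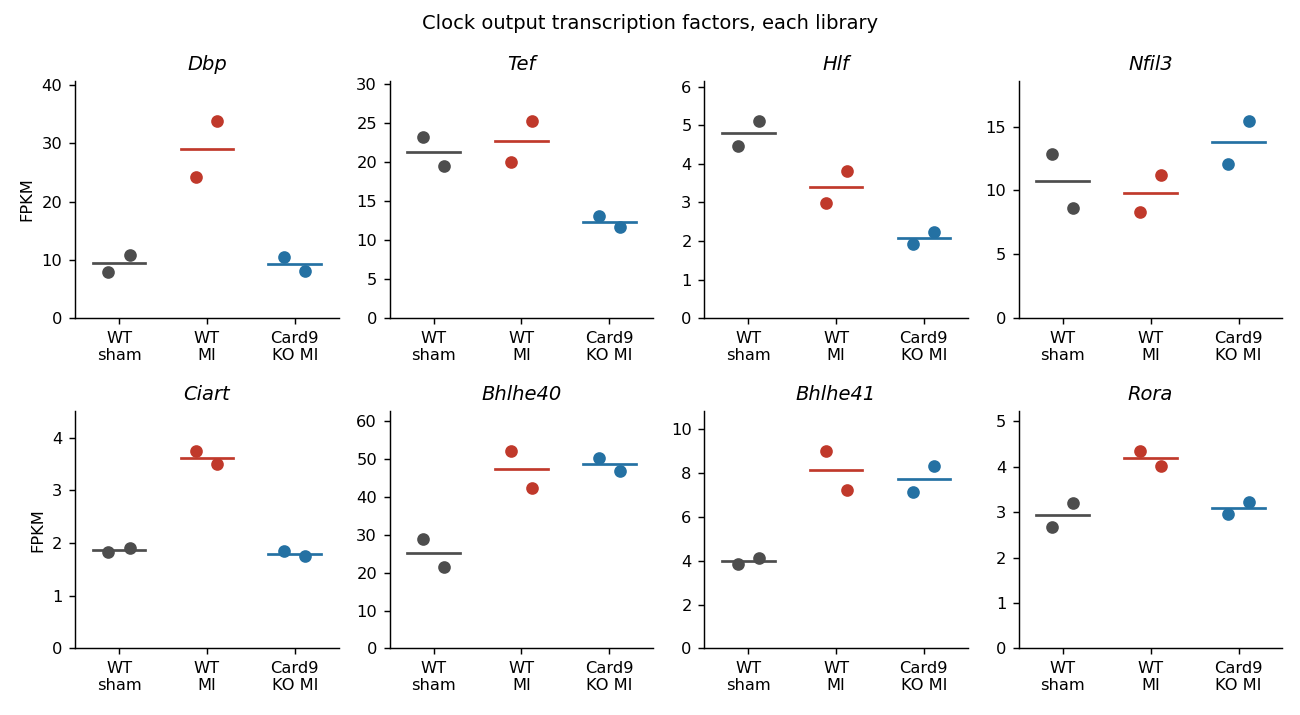
FPKM of each clock output transcription factor (vertical axis, linear from 0) in the 2 libraries of each group, with points for libraries and lines for group means. Dbp and Ciart are high in WT MI only, Tef and Hlf are lowest where labelled Card9 KO MI, and Bhlhe40 and Bhlhe41 are high in both infarct groups.

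In WT MI against WT sham, 4 of the 8 members were called, Dbp, Ciart, Bhlhe40 and Bhlhe41, all of them higher, against 37.1% of all genes tested. The median log2 fold change was 0.54 over the members and 0.19 over all genes. After upper-quartile scaling or quantile normalization 3 members were called higher there and 1 lower (Hlf), Ciart was not called, and the median of the members was 0.384 and 0.201. With the Card9 KO MI-labelled libraries set against WT MI, 1 of the 8 members was called, Dbp, which was lower, against 1.40% of all genes, and the medians were −0.43 and 0.045. An unadjusted p below 0.05 in limma was found for 4 of the 8 there, against 2629 of the 13120 genes tested, a smaller share. Dbp was not called without WT MI replicate 1, WT MI replicate 2, Card9 KO MI replicate 1 or Card9 KO MI replicate 2. Against WT sham, the Card9 KO MI-labelled libraries had 4 of the 8 members called, with Bhlhe40 and Bhlhe41 higher and Tef and Hlf lower, against 49.1% of all genes, so this count is close to the background. The medians were 0.022 and 0.24, and the median of the members turned to −0.17 with upper-quartile scaling and to −0.37 with quantile normalization. Since each group enters a pair of comparisons, their values are not independent of each other: those against WT sham share its libraries, and both comparisons with WT MI share the WT MI libraries.

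Scaling of the libraries bears on these directions. On the deposited scale 3637 genes were higher and 1232 lower by limma in WT MI against WT sham, but 2603 and 2159 after upper-quartile scaling and 2198 and 2447 after quantile normalization, while the median of all genes moved from 0.19 to 0.0039 and to −0.090. Without WT MI replicate 1, the total of 4869 calls came to 2939. For the Card9 KO MI-labelled libraries against WT sham, 4569 higher and 1875 lower became 3230 and 2884, then 2755 and 3444, at medians of 0.24, 0.026 and −0.10. The median between the infarct groups was 0.045, 0.011 and −0.0095, and 107 genes were higher and 77 lower, a total of 184 that came to 9 without WT MI replicate 1, 26 without WT MI replicate 2, 34 when Card9 KO MI replicate 1 was left out and 110 when Card9 KO MI replicate 2 was. Relative to the median of all genes on the deposited scale, the changes in WT MI were 1.34 for Dbp, 0.50 for Ciart, 0.70 for Bhlhe40 and 0.68 for Bhlhe41. Those in the Card9 KO MI-labelled libraries against WT sham were −0.98 for Tef, −1.15 for Hlf, 0.70 for Bhlhe40 and 0.57 for Bhlhe41.

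Dbp encodes the D-box activator with a wide daily swing in many tissues. Its FPKM was 7.95 and 10.85 in WT sham (9.40 ± 2.05, SD, n = 2), whereas WT MI gave 24.26 and 33.92 (29.1 ± 6.83, SD, n = 2) and the Card9 KO MI-labelled libraries gave 10.42 and 8.11 (9.27 ± 1.63, SD, n = 2). Both WT MI libraries stood well above the other 4, which overlapped with each other. Dbp rose in WT MI against WT sham by a log2 fold change of 1.53 (standard error 0.21, adjusted p = 0.0012), and this call held under every alternative setting tried. In the Card9 KO MI-labelled libraries Dbp was lower than in WT MI, at a log2 fold change of −1.54 (standard error 0.21, adjusted p = 0.024). That direction was the same under all 15 alternatives, with log2 fold changes from −1.78 to −1.25, but the call rested on few libraries. Leaving out WT MI replicate 1 gave an adjusted p of 0.082, WT MI replicate 2 gave 0.12, Card9 KO MI replicate 1 gave 0.066 and Card9 KO MI replicate 2 gave 0.064. It was 0.091 with no filter on low values and 0.062 without the trend in the variance, in a range from 0.015 to 0.12 over all alternatives. The study displayed Dbp among genes it picked from these same libraries, so its direction between the infarct groups is not independent evidence. Against WT sham, the Card9 KO MI-labelled libraries differed in Dbp by −0.014, with a 95% confidence interval from −0.50 to 0.48, and a p that misses the threshold does not show that the levels were equal. In bulk tissue, fewer cells of a type and less RNA per cell cannot be told apart, here and for every member below.

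Tef encodes the second D-box activator. Its FPKM was 23.2 and 19.53 for WT sham, 19.97 and 25.33 for WT MI, and 13.05 and 11.67 for the Card9 KO MI-labelled libraries. WT sham and WT MI overlapped, and both libraries labelled Card9 KO MI lay below the other 4. Tef fell in the Card9 KO MI-labelled libraries against WT sham by 0.74 on the log2 scale (standard error 0.15, adjusted p = 0.0053), a call made under all 15 alternative fits but not with a fold change of at least 2. Against WT MI the log2 fold change was −0.82 with an adjusted p of 0.053, just outside the threshold, and its 95% confidence interval ran from −1.17 to −0.46. This value passed the threshold with upper-quartile scaling (adjusted p = 0.047), with quantile normalization (0.038), with 5 added to FPKM (0.047) and with a mean FPKM of at least 5 as the filter (0.036), and over all alternatives the adjusted p ranged from 0.036 to 0.20. For WT MI against WT sham the log2 fold change of Tef was 0.076 on the deposited scale, with a 95% confidence interval from −0.28 to 0.43, and −0.13 after either of the other scalings.

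Hlf, the remaining D-box activator, had an FPKM of 4.47 and 5.12 for WT sham, 2.98 and 3.82 for WT MI, and 1.91 and 2.24 for the Card9 KO MI-labelled libraries. The groups did not overlap: WT sham was highest, WT MI lay between, and the Card9 KO MI-labelled libraries were lowest. Hlf fell in the last group against WT sham by 0.91 on the log2 scale (standard error 0.19, adjusted p = 0.0051), a call made under every alternative fit in which Hlf was tested, but again not with a fold change of at least 2. The step from WT sham to WT MI was −0.40 (95% confidence interval −0.84 to 0.034, adjusted p = 0.13), which passed the threshold with upper-quartile scaling (−0.58, adjusted p = 0.047) and quantile normalization (−0.71, adjusted p = 0.024), within a range of adjusted p from 0.024 to 0.44 over the alternatives. The step from WT MI to the Card9 KO MI-labelled libraries was −0.51 (95% confidence interval −0.95 to −0.077, adjusted p = 0.19). For Dbp, Tef and Hlf alike, the Card9 KO MI-labelled libraries were both below those of WT MI. Libraries of the infarct groups did not overlap, in either direction, for 6 of the 8 members, and the share over all genes was not counted. Whether the members differ from each other in their change was not tested.

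Nfil3 encodes the repressor that competes for the D-box and is also known from immune cells. Its FPKM was 12.85 and 8.66 for WT sham, 8.33 and 11.21 for WT MI, and 12.08 and 15.47 for the Card9 KO MI-labelled libraries. WT sham overlapped with both other groups, while the Card9 KO MI-labelled libraries were both above those of WT MI. Limma called Nfil3 in 0 of the 3 comparisons, and none had an unadjusted p below 0.05. Its log2 fold change in the Card9 KO MI-labelled libraries was 0.46 against WT MI (95% confidence interval −0.053 to 0.97, adjusted p = 0.30) and 0.34 against WT sham (95% confidence interval −0.17 to 0.86, and from 0.046 to 0.60 over the alternatives). That of WT MI against WT sham was −0.12 (95% confidence interval −0.63 to 0.40, adjusted p = 0.71), which turned to 0.14 without WT sham replicate 1 and to 0.078 without WT MI replicate 1. The 2 WT sham libraries, at 12.85 and 8.66, span much of the range seen over all groups.

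**Figure D2:**
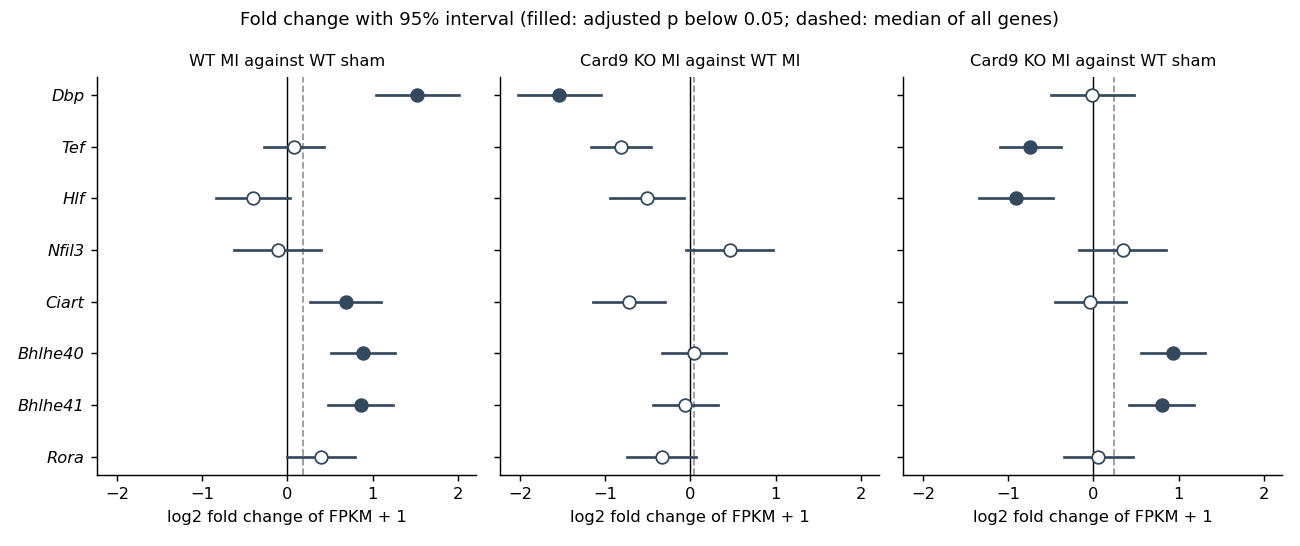
Log2 fold change of FPKM + 1 (horizontal axis) of each member in the 3 comparisons, from the limma fit of 6 libraries, where bars are 95% confidence intervals, filled points have an adjusted p below 0.05, and the dashed line is the median of all genes. Dbp lies at 1.53 in WT MI against WT sham and at −1.54 in the Card9 KO MI-labelled libraries against WT MI, and Bhlhe40 and Bhlhe41 lie near 0 in the latter comparison.

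Ciart encodes a repressor of ARNTL and CLOCK. Its FPKM was 1.83 and 1.91 for WT sham, 3.75 and 3.49 for WT MI, and 1.85 and 1.75 for the Card9 KO MI-labelled libraries. Both WT MI libraries were above the other 4, which lay between 1.75 and 1.91 and overlapped, and for Dbp the WT MI libraries were the highest as well. Ciart rose in WT MI against WT sham with a log2 fold change of 0.69 (standard error 0.18, adjusted p = 0.020). That call was lost with upper-quartile scaling (0.54, adjusted p = 0.051) and with quantile normalization (0.34, adjusted p = 0.18), and also without any 1 of the 4 libraries compared, with adjusted p from 0.062 without WT sham replicate 2 and 0.068 without WT MI replicate 2 to 0.069 without WT sham replicate 1 and 0.099 without WT MI replicate 1. Its log2 fold change between the Card9 KO MI-labelled libraries and WT MI was −0.72 (95% confidence interval −1.14 to −0.30, adjusted p = 0.096), which did not pass the threshold in any of 14 alternatives. Against WT sham it was −0.036 (95% confidence interval −0.45 to 0.38). With an estimated 11.2 to 29.2 fragments per library, Ciart is the member with the least depth behind it.

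Bhlhe40 and Bhlhe41 encode E-box repressors that also respond to signals other than the clock, hypoxia among them. The FPKM of Bhlhe40 was 28.97 and 21.48 for WT sham, 52.26 and 42.38 for WT MI, and 50.29 and 46.98 for the Card9 KO MI-labelled libraries. That of Bhlhe41 was 3.86 and 4.13 for WT sham, 9.02 and 7.22 for WT MI, and 7.14 and 8.33 for the Card9 KO MI-labelled libraries. For both genes the 4 infarct libraries were above the sham libraries and overlapped with each other. Against WT sham, Bhlhe40 rose by 0.89 in WT MI and by 0.93 in the Card9 KO MI-labelled libraries on the log2 scale (standard error 0.16 each, adjusted p = 0.0044 and 0.0023). Bhlhe41 rose by 0.86 and 0.80 in the same comparisons (standard error 0.16 each, adjusted p = 0.0054 and 0.0051), and the call against WT sham in the Card9 KO MI-labelled libraries was lost with quantile normalization (0.41, adjusted p = 0.085, within a range from 0.0049 to 0.085 over the alternatives). With a fold change of at least 2 neither gene was called. The infarct groups differed by a log2 fold change of 0.046 for Bhlhe40 (95% confidence interval −0.33 to 0.42) and −0.059 for Bhlhe41 (95% confidence interval −0.44 to 0.32), and the signs turned without WT MI replicate 2 (−0.10) or Card9 KO MI replicate 1 (−0.0026) for Bhlhe40, and without WT MI replicate 1 (0.084) or Card9 KO MI replicate 1 (0.040) for Bhlhe41.

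Rora encodes the ROR nuclear receptor that activates Arntl. Its FPKM was 2.68 and 3.2 for WT sham, 4.35 and 4.01 for WT MI, and 2.96 and 3.23 for the Card9 KO MI-labelled libraries. Both WT MI libraries were above the other 4, which overlapped. Limma called Rora in 0 of the 3 comparisons, and none had an unadjusted p below 0.05. The log2 fold change was 0.40 in WT MI against WT sham (95% confidence interval −0.0050 to 0.80, adjusted p = 0.11, and from 0.063 to 0.50 over the alternatives) and −0.34 in the Card9 KO MI-labelled libraries against WT MI (95% confidence interval −0.74 to 0.063, adjusted p = 0.32). Set against WT sham, the latter gave 0.058 on the deposited scale (95% confidence interval −0.34 to 0.46), −0.13 after upper-quartile scaling and −0.39 after quantile normalization. For Dbp, Ciart and Rora both WT MI libraries were thus the highest, although of these only Dbp was called against both other groups, and the order of the other 4 libraries differed between these genes. How many of all genes tested share that order was not counted. In the lists described below, the infarct groups did not overlap for 13 of 17 core clock genes, 15 of 15 heart outputs and 8 of 16 hypoxia targets.

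The order of the members by FPKM, which is a level per length of gene, differed between the groups. In WT sham, Bhlhe40 (25.2 ± 5.30, SD, n = 2) and Tef (21.4 ± 2.60) were highest and their libraries overlapped, as did those of Nfil3 (10.8 ± 2.96) and Dbp (9.40 ± 2.05), and Hlf, Bhlhe41, Rora and Ciart followed without overlap. In WT MI, Bhlhe40 (47.3 ± 6.99) was followed by Dbp (29.1 ± 6.83) and Tef (22.7 ± 3.79), whose libraries overlapped, and Hlf (3.40 ± 0.594) was last, overlapping with Ciart (3.62 ± 0.184). In the Card9 KO MI-labelled libraries, Bhlhe40 (48.6 ± 2.34) was followed by Nfil3 (13.8 ± 2.40) and Tef (12.4 ± 0.976), which overlapped, and Ciart (1.80 ± 0.0707) was last. Dbp thus had rank 4 in WT sham, rank 2 in WT MI and rank 4 again among the Card9 KO MI-labelled libraries, which overlapped with Bhlhe41 there.

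Ratios of genes within a library are not altered by multiplying that library's values by a factor. The ratio of Dbp to Nfil3, activator to repressor at the D-box, was 0.619 and 1.25 for WT sham, 2.91 and 3.03 for WT MI, and 0.863 and 0.524 for the Card9 KO MI-labelled libraries. The ratio was above 1 in both WT MI libraries and in 1 WT sham library. The ratio of Tef to Nfil3 was 1.81 and 2.26 for WT sham, 2.40 and 2.26 for WT MI, and 1.08 and 0.754 for the Card9 KO MI-labelled libraries, and that of Hlf to Nfil3 was 0.348 and 0.591, 0.358 and 0.341, and 0.158 and 0.145 in the same order. Both of these ratios were lowest in the Card9 KO MI-labelled libraries, with no overlap with the other groups. The ratio of Bhlhe40 to Bhlhe41 ranged from 5.20 to 7.51 over the 6 libraries and overlapped between all groups. These ratios are descriptions of 6 libraries and were not tested.

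**Figure D3:**
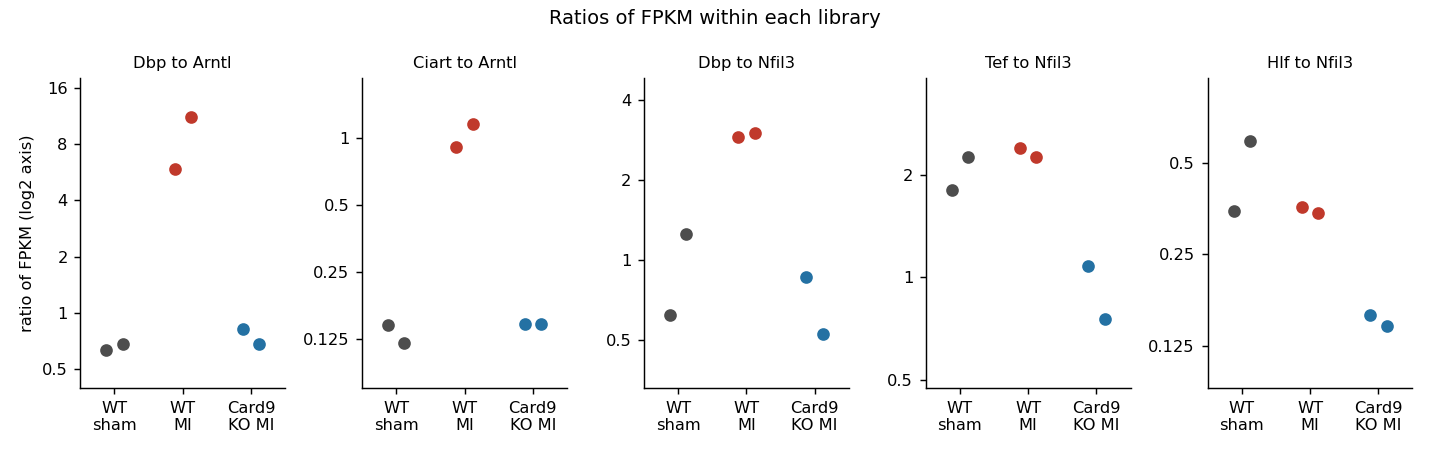
Ratio of the FPKM of 2 genes within each library (vertical axes, log2 scale, each with its own range), by group, with points for libraries. The ratios of Dbp and of Ciart to Arntl are highest in WT MI, and those of Tef and Hlf to Nfil3 are lowest where labelled Card9 KO MI.

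The core clock genes give the setting in which the output factors were measured. Counts called in this list and those below stand beside the share of all genes tested. That share was 37.1% in WT MI against WT sham and 1.40% between the infarct groups. It was 49.1% in the Card9 KO MI-labelled libraries against WT sham. Of 17 core clock genes, 15 passed the filter, and in WT MI against WT sham 3 were called higher (Per1, Per2 and Per3) and 5 lower (Arntl, Npas2 and Cry1 among them), with a median log2 fold change of −0.038 against 0.19 over all genes. The counts were 3 and 6 after upper-quartile scaling (median −0.24) and 1 and 7 after quantile normalization (median −0.266). The number of calls came from 8 to 5 without WT sham replicate 2 and 4 without WT MI replicate 2. The call of Cry1 was made in 9 of 14 alternatives and that of Per3 in 10, with adjusted p up to 0.16 and 0.14, and Fbxl21 and Rorb were not tested. Arntl, which encodes the partner of CLOCK that activates Dbp, had an FPKM of 12.6 and 15.84 for WT sham, 4.13 and 3.03 for WT MI, and 12.66 and 11.95 for the Card9 KO MI-labelled libraries. Its WT MI libraries were the lowest, opposite to those of Dbp and Ciart. Arntl fell in WT MI against WT sham by 1.73 on the log2 scale (standard error 0.17, adjusted p = 0.00031) and was higher in the Card9 KO MI-labelled libraries, at 1.55 against WT MI (adjusted p = 0.014). The latter call was lost with no filter (adjusted p = 0.079) and without WT MI replicate 1 (0.051), WT MI replicate 2 (0.067) or Card9 KO MI replicate 1 (0.073), in a range from 0.0083 to 0.079. Arntl was the only core clock gene called between the infarct groups, where the median over the 15 genes was 0.12 against 0.045 over all genes.

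Npas2, the alternative partner of ARNTL, had an FPKM of 3.97 and 4.14 for WT sham, 1.17 and 1.57 for WT MI, and 3.14 and 4.13 for the Card9 KO MI-labelled libraries. Per2, a repressor of the loop, had 1.12 and 1.17, then 3.05 and 3.66, then 0.75 and 1.19 in the same order. Npas2 was lowest and Per2 highest in WT MI, and for each of them the other 2 groups overlapped. Npas2 fell in WT MI against WT sham by 1.10 on the log2 scale (adjusted p = 0.0043), and Per2 rose by 1.02 (adjusted p = 0.0085, lost with quantile normalization at 0.052 and without WT MI replicate 2 at 0.056, in a range from 0.0054 to 0.056). Against WT MI, the Card9 KO MI-labelled libraries gave 0.96 for Npas2 (adjusted p = 0.061) and −1.15 for Per2 (adjusted p = 0.053), both outside the threshold. The value of Per2 passed it with 5 added to FPKM (adjusted p = 0.039) and with quantile normalization (0.042), in a range from 0.039 to 0.25 over the alternatives.

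Not every core clock gene followed the order of Dbp or its mirror image. Nr1d1, a repressor of Arntl, had an FPKM of 51.31 and 64.03 for WT sham, 43.03 and 44.06 for WT MI, and 29.33 and 31.29 for the Card9 KO MI-labelled libraries, a stepwise order like that of Hlf. Its log2 fold change in the Card9 KO MI-labelled libraries was −0.90 against WT sham (adjusted p = 0.00078), and its smaller call in WT MI (−0.39, adjusted p = 0.041) was made in 8 of 15 alternatives, with adjusted p up to 0.21. Per1 had 6.91 and 13.63 for WT sham, 27.56 and 24.86 for WT MI, and 20.27 and 16.49 for the Card9 KO MI-labelled libraries, so that all infarct libraries were above both sham libraries, as for Bhlhe40. Unlike Bhlhe40, Per1 had both WT MI libraries above the Card9 KO MI-labelled ones, as Dbp did. Limma did not call that difference (−0.49, adjusted p = 0.34). With the Card9 KO MI-labelled libraries set against WT sham, 3 core clock genes were called higher (Csnk1d, Per1 and Timeless) and 4 lower (Nr1d1 and Nr1d2 among them), with a median of −0.13 against 0.24 over all genes. The number of calls came from 7 to 3 without WT sham replicate 2, 3 when Card9 KO MI replicate 1 was left out and 4 when Card9 KO MI replicate 2 was, and none was higher after either other scaling, at medians of −0.332 with upper quartiles and −0.474 with quantiles. The ratio of Dbp to Arntl within a library was 0.631 and 0.685 for WT sham, 5.87 and 11.2 for WT MI, and 0.823 and 0.679 for the Card9 KO MI-labelled libraries. That of Ciart to Arntl was 0.145 and 0.121, then 0.908 and 1.15, then 0.146 and 0.146. In both ratios the WT MI libraries stood apart, and the other 4 overlapped or nearly met.

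**Figure D4:**
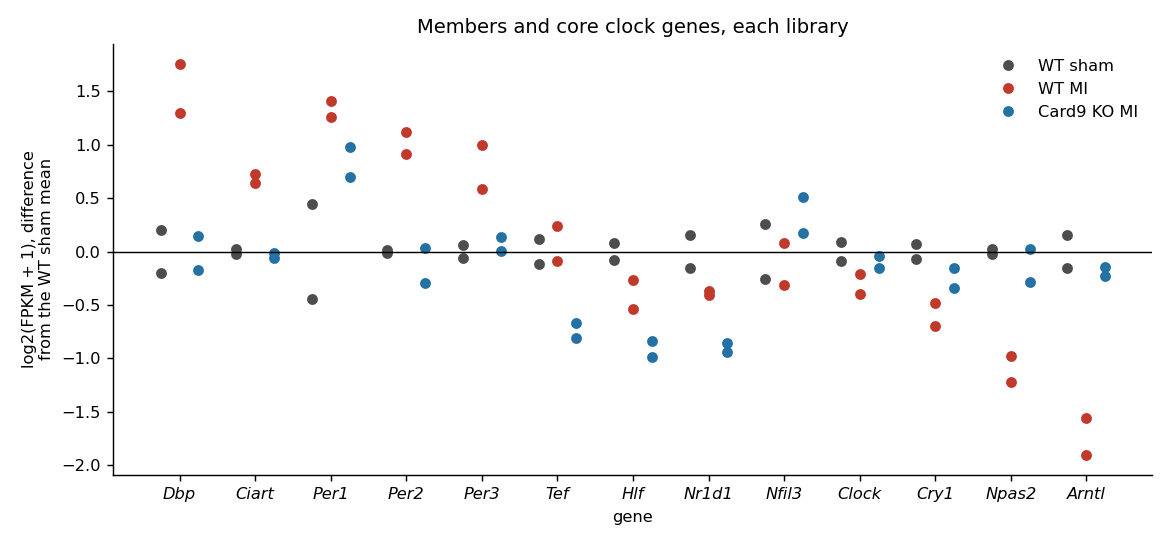
Log2(FPKM + 1) of output factors and core clock genes in each library, as the difference from the WT sham mean of that gene (vertical axis), with points for libraries coloured by group. In WT MI, Dbp, Ciart, Per1, Per2 and Per3 lie above the other groups. Clock, Cry1, Npas2 and Arntl lie below them in WT MI, while Tef, Hlf and Nr1d1 are lowest where labelled Card9 KO MI.

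Further clock-controlled genes, outside the members and the core clock, moved in both directions. In WT MI against WT sham, 4 of 16 such genes were called higher (Cdkn1a, Pdxk, Tspan4 and Wee1) and 4 lower (Gpcpd1, Klf9, Nampt and Ypel2), with a median of 0.13 that turned to −0.083 after upper-quartile scaling and −0.064 after quantile normalization. The counts were then 3 higher and 5 lower, and 2 higher and 5 lower. Without WT sham replicate 2 or WT MI replicate 1 there were 4 calls, and without WT MI replicate 2 there were 5. Usp2, a deubiquitinase known as an output gene of the clock, was the only one called between the infarct groups. Its FPKM was 33.97 and 34.19 for WT sham, 35.68 and 35.05 for WT MI, and 16.08 and 21.11 for the Card9 KO MI-labelled libraries, which both lay below the other 4, as they did for Tef. The log2 fold change against WT MI was −0.90 (adjusted p = 0.034). That call was made in 8 of 15 alternatives and was lost without WT MI replicate 1 (adjusted p = 0.22), WT MI replicate 2 (0.14) or Card9 KO MI replicate 1 (0.090). Against WT sham, 6 of the 16 were called higher among the Card9 KO MI-labelled libraries and 5 lower, with a median of 0.15 that turned to −0.093 and −0.094 after the other scalings. The counts there were 4 higher and 5 lower with upper quartiles, and 3 higher and 6 lower with quantiles.

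Of 15 genes of the heart known as clock outputs, 2 were called higher and 6 lower in WT MI against WT sham (median −0.37), and after either other scaling 0 were called higher and 9 lower by limma. The number of calls came from 8 to 5 without WT sham replicate 1, 4 without WT sham replicate 2 and 4 without WT MI replicate 1. Among the Card9 KO MI-labelled libraries 1 was called higher and 6 lower against WT sham (median −0.50), with 10 and 11 lower after the other scalings. Those called between the infarct groups were 3, all lower where labelled Card9 KO MI, with a median of −0.36 against 0.045 over all genes. Among them were Bdh1, a ketone body enzyme (−1.87, adjusted p = 0.0088), and Pnpla2, a triglyceride lipase (−0.70, adjusted p = 0.049). In limma 9 of the 15 had an unadjusted p below 0.05 there, and 11 values were below 0 but 4 above. Pdk4 went up, from 26.42 and 66.6 in WT MI to 112.07 and 169.02 where labelled Card9 KO MI. Ucp3 did too, from 2.01 and 5.39 to 11.92 and 14.49, and neither was called. Of 15 alternatives the call of Bdh1 was made in 12 and that of Pnpla2 in 4, and the number of genes of this list called by limma was 0 when WT MI replicate 1 was left out and 1 when WT MI replicate 2, Card9 KO MI replicate 1 or either WT sham library was. Klf15, a regulator of metabolism in heart muscle, had an FPKM of 20.77 and 24.4 for WT sham, 13.55 and 15.82 for WT MI, and 6.47 and 9.37 for the Card9 KO MI-labelled libraries, the stepwise order of Hlf. Against WT sham its log2 fold change was −1.42 in the last of these (adjusted p = 0.00056).

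Some members respond to inputs other than the clock, so genes of those inputs were counted beside them. Of 16 hypoxia targets, 7 were called higher and 3 lower in WT MI against WT sham (median 0.44), where 37.1% of all genes were called, and 6 and 4 after either other scaling (median 0.241 and 0.214). Among the Card9 KO MI-labelled libraries the counts were 8 and 5 (median 0.52), and after either other scaling 5 and 5 (median 0.273 and 0.316). Limma called 0 of the 16 between the infarct groups, where 4 had an unadjusted p below 0.05, and Bhlhe40 and Bhlhe41 were likewise not called there. Of 14 glucocorticoid-responsive genes, of which Per1, Pdk4 and Tsc22d3 also stand in the lists above, 8 were called higher and 2 lower in WT MI against WT sham (median 0.98). Among the Card9 KO MI-labelled libraries the counts were 8 and 0 (median 0.86), and after either other scaling 7 and 3. For the infarct groups against each other, Angptl4 was called higher and Lcn2 and Mt1 lower where labelled Card9 KO MI (median −0.086). The call of Lcn2 was made in all 15 alternatives and that of Mt1 in 14, but that of Angptl4 in 4, with adjusted p up to 0.28, and without WT MI replicate 1 only Lcn2 was called among the 14. Lcn2, Mt1 and Mt2 are among the genes the study picked from these libraries, so their direction here is not independent evidence. For Lcn2 the study also reports a separate measurement, with less mRNA in Card9 KO hearts after infarction. The part of either input in the levels of the members was not tested.

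The genes most like Dbp over the 6 libraries, by the smallest root mean square difference of centred log2(FPKM + 1), were Asprv1 (0.233), Lrg1 (0.247), Slc10a6 (0.251), Fetub (0.277) and Apod (0.312). Lrg1, the most abundant of them, had an FPKM of 32.55 and 37.11 for WT sham, 121.45 and 103.21 for WT MI, and 32.8 and 28.47 for the Card9 KO MI-labelled libraries. As for Dbp, its WT MI libraries stood apart and the other 4 lay close together, and the study picked Lrg1 from these libraries as well. None of these 5 genes is in the clock lists used here. Asprv1 and Fetub reached an FPKM of 1 in the WT MI libraries only, and so passed the filter through them alone. Asprv1 had 0 and 0.21 for WT sham, 2.09 and 1.98 for WT MI, and 0.6 and 0.16 where labelled Card9 KO MI, values of few fragments. The genes most like Nfil3 were Kctd3, Msantd2, Tchp, Ackr2 and Cdpf1, with differences from 0.0779 to 0.0921. These are descriptions over libraries that share their groups, and they say nothing of shared control.

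Markers of several cell types differed between the groups along with the members. Cardiomyocyte markers, 12 in number, had a summed FPKM of 48567 and 50441 for WT sham, 30529 and 31600 for WT MI, and 26673 and 30602 for the Card9 KO MI-labelled libraries. Myl2 was the most abundant of them in WT sham and Actc1 in the infarct libraries. Against WT sham, 8 of the 12 were called lower and 2 higher (Myh7 and Nppa) in WT MI, and 10 lower and 1 higher among the Card9 KO MI-labelled libraries. The 12 macrophage markers, led by Lyz2 in every library, summed to 423 and 361, 1477 and 1881, and 2993 and 2169 in the same order, and all 12 were called higher in either infarct group against WT sham. The 10 fibroblast markers summed to 516 and 495, 1485 and 2010, and 3196 and 3066, with 7 called higher in WT MI and 8 among the Card9 KO MI-labelled libraries. The most abundant of these was Dcn in WT sham, Col3a1 in WT MI replicate 1 and Col1a1 in the other infarct libraries. The cardiomyocyte sum was thus lower, and the macrophage and fibroblast sums higher, in every infarct library than in either sham library. Between the infarct groups, limma called 0 of 12 cardiomyocyte and 0 of 12 macrophage markers, where 4 and 6 had an unadjusted p below 0.05, and 3 of 10 fibroblast markers (Col1a1, Col1a2 and Postn) were called higher where labelled Card9 KO MI. After quantile normalization 2 macrophage markers were called higher there. Of the 10 fibroblast markers, 8 had a value above 0 there and 2, Pdgfra and Dcn, below. Pdgfra had an FPKM of 15.2 and 15.87 for WT MI and 10.64 and 10.43 where labelled Card9 KO MI, without overlap, and was not called.

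Neutrophil markers, led by S100a9 except in WT sham replicate 2, where Cxcr2 was higher, summed to 7.64 and 5.40 for WT sham, 212 and 93.1 for WT MI, and 59.9 and 46.7 for the Card9 KO MI-labelled libraries. The sum was thus highest in WT MI, as Dbp was. Of the 10 markers 6 were tested, and all 6 were called higher in either infarct group against WT sham on the deposited scale, while limma called 0 between the infarct groups (2 had an unadjusted p below 0.05). Among the Card9 KO MI-labelled libraries 5 were called higher against WT sham after upper-quartile scaling and 4 after quantile normalization. Ly6g and Camp had no entry in the tables used here and were taken as 0, and the study picked S100a8, S100a9 and Myh7 from these libraries. Smooth muscle and pericyte markers, led by Rgs5 in WT sham and by Acta2 in the infarct libraries, summed to 211 and 244, 298 and 279, and 543 and 523 in the same order, with 4 of 8 called higher and 2 lower in WT MI, 6 higher and 2 lower among the Card9 KO MI-labelled libraries against WT sham, and 2 higher between the infarct groups.

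The marker sums of the remaining cell types differed less. The 8 endothelial markers, led by Cdh5 in every library, ranged from 338 to 423 in their sum, with 3 called higher and 1 lower in WT MI and 4 and 1 among the Card9 KO MI-labelled libraries, but 0 and 3 and then 2 and 2 after upper-quartile scaling. The sum of 10 T, NK and B cell markers, of which Cd3d, Cd79a or Nkg7 was the highest by library, stayed between 4.83 and 9.07. That of 6 adipocyte markers, with Lep, which had no entry, taken as 0, stayed between 471 and 629, and nearly all of it was Fabp4 (457.13 to 619.69) in every library. Of these, limma called 0 of 4 lymphocyte and 0 of 3 adipocyte markers tested in each comparison on the deposited scale, and an unadjusted p below 0.05 was found for 0 of the former and for 1 of the latter, between the infarct groups. Limma called 0 endothelial markers between the infarct groups, of which 2 had an unadjusted p below 0.05. The part of the shifts in cell type markers in the levels of Dbp, Tef, Hlf and the other members was not tested.

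**Figure D5:**
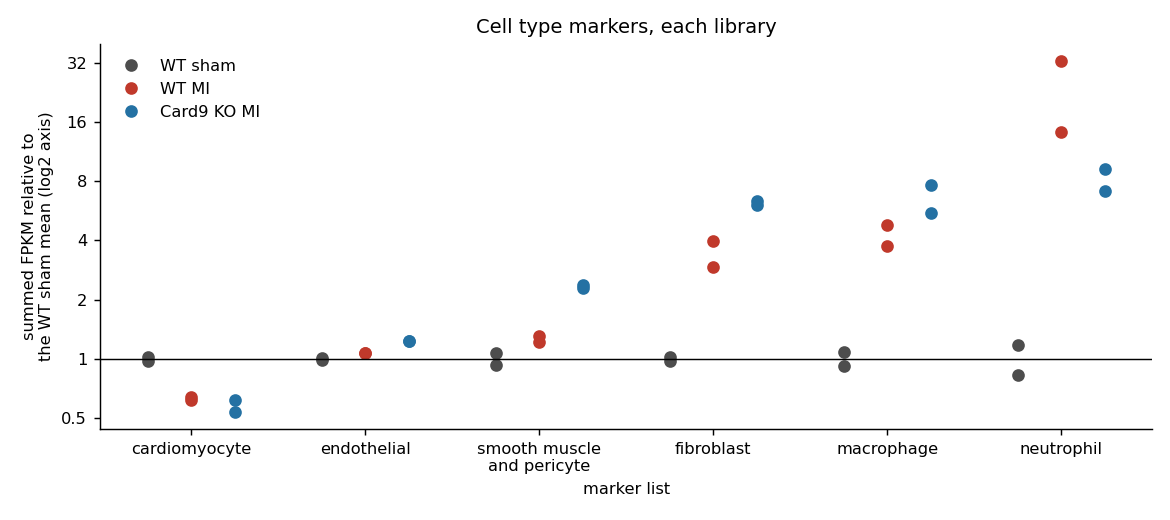
Summed FPKM of each cell type's markers in each library, relative to the WT sham mean (vertical axis, log2 scale), with points for libraries coloured by group. The cardiomyocyte sum is lower in all infarct libraries, the fibroblast and macrophage sums are highest where labelled Card9 KO MI, and the neutrophil sum is highest in WT MI.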

How the data were processed

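The authors deposited one table per library with an FPKM per gene; the submitters' processing notes name the mm9 build with Bowtie2 and BWA, without their roles, and a gene missing from a table was taken as 0. Symbols were matched to NCBI gene numbers, and the members and lists were chosen with earlier results of these data known. The filter asked for 2 or more of the 6 libraries with an FPKM of 1 or more, and the 13120 genes that passed entered limma 3.58.1 in R 4.3.3 (lmFit, then eBayes with a trend) as log2(FPKM + 1), with p adjusted by the Benjamini-Hochberg method over all genes tested, and the procedure was tested on simulated data. Groups were taken from the labels, with 2 libraries each. Alternatives were other pseudocounts, filters and scalings, no trend, a replicate block, only the groups compared, a 2-fold minimum and each library left out in turn. Named genes were the 8 members, the genes of the fixed lists (core clock, other clock-controlled genes, heart clock outputs, hypoxia, glucocorticoid response and cell type markers), Card9 as the targeted gene, and the 5 genes most like Dbp and Nfil3. Results for some single genes of these lists are not reported here. Sphk2 was named after its values were seen.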

Additional observations from a re-analysis of the deposited data

How the results depend on the processing

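Of the fold changes of the members, 317 of those recomputed under an alternative had the same direction and side of the threshold, 13 lost the call, 6 gained it and 15 turned sign, and 259 counts stayed within 1.5 times while 77 did not. Where a group was left with 1 library, that library was assumed to vary like the others. Hlf, Ciart, Rora, Npas2, Per2, Per3 and Card9 had no value with a mean FPKM of at least 5. The cause of the changes was not tested, beyond fewer libraries or genes.

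Members called in WT MI against WT sham numbered 4, and 1 with a fold change of at least 2. For Card9 KO MI-labelled libraries against WT MI the 1 became 2 with FPKM + 5, with a mean FPKM of at least 5 and with upper-quartile scaling or quantile normalization, 0 with no filter or no trend, and 0 to 1 with a library left out. Against WT sham the 4 became 0 with a fold change of at least 2.

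All genes called in WT MI against WT sham numbered 2939 to 4749 with a library left out and 1707 with a fold change of at least 2. Between the infarct groups they numbered 80 with FPKM + 0.1, 312 with FPKM + 5, 12 with no filter, 284 with a mean FPKM of at least 5, 58 with no trend, 71 with a replicate block, 101 with only the groups compared, 96 with a fold change of at least 2 and 9 to 147 with a library left out. In the third comparison they numbered 2544 with a fold change of at least 2.

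In WT MI against WT sham, 4 to 8 core clock genes were called with a library left out, 4 with a mean FPKM of at least 5 and 5 with a fold change of at least 2. Other clock-controlled genes gave 4 to 8 and 1 with the fold, heart outputs 4 to 8 and 3, and hypoxia targets 3 with the fold. Between the infarct groups, core clock calls were 2 with FPKM + 5 or quantile normalization, 0 with no filter and 0 to 1 with a library left out. Other clock-controlled calls were 0 with no filter, no trend, a replicate block, only the groups compared or the fold, and 0 to 1 with a library left out. Heart outputs gave 1 with FPKM + 0.1, no trend, only the groups compared or the fold, 0 with no filter, and 0 to 3 with a library left out, and glucocorticoid-responsive genes 1 to 4. Against WT sham, the Card9 KO MI-labelled libraries gave core clock calls of 3 with no filter, 4 with upper-quartile scaling, no trend or only the groups compared, 1 with the fold and 3 to 6 with a library left out. There, other clock-controlled calls were 2 and hypoxia calls 4 with the fold, and heart outputs 11 after upper-quartile scaling and 12 after quantile normalization.

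The log2 fold change of Dbp between the infarct groups was −1.54 and no longer called with no filter (adjusted p = 0.091) or no trend (0.062), and ran from −1.78 to −1.31 with a library left out. That of Tef was called with FPKM + 5 (−0.67), the filter on mean FPKM (−0.82), upper-quartile scaling (−0.85) and quantile normalization (−0.88). In WT MI against WT sham, Hlf was called with upper-quartile scaling (−0.58) and quantile normalization (−0.71). Ciart was not called there with these scalings (0.54 and 0.34) or with a WT library left out, with values from 0.65 to 0.73. Bhlhe41 was not called against WT sham in Card9 KO MI-labelled libraries with quantile normalization (0.41).

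Values that turned sign were not called on either side. Tef in WT MI against WT sham turned to −0.13 after upper-quartile scaling and −0.13 after quantile normalization, and ranged from −0.088 to 0.24 with a library left out. Nfil3 there ranged from −0.38 to 0.14. Between the infarct groups, Bhlhe40 ranged from −0.10 to 0.19 and Bhlhe41 from −0.20 to 0.084. In Card9 KO MI-labelled libraries against WT sham, Dbp ranged from −0.22 to 0.19 with a library left out, Rora from −0.037 to 0.15 besides −0.13 and −0.39 with these scalings, Npas2 from −0.29 to 0.021 and Per2 from −0.29 to 0.030. Per3 turned to −0.089 and −0.39 with these scalings.

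Each group had 2 libraries of an estimated 3016207 to 4312423 fragments, and low members such as Ciart rested on 11.2 to 29.2 of them; the part of depth in their differences was not tested.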
